A study of Mus musculus with 5 samples.

Results

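The receptors for the Fc part of immunoglobulin G (IgG) were described as 5 genes: the activating receptors Fcgr1, Fcgr3 and Fcgr4, the inhibitory receptor Fcgr2b, and Fcer1g, which encodes the common gamma chain. They were chosen by symbol, and all 5 were found among the 22815 rows of the deposited gene table. Expression was measured by Smart-seq2, a low-input RNA sequencing method, in cells washed from the peritoneal cavity of mice aged 8 weeks. The 5 libraries formed 3 groups: mice described as Irf8-deficient and given pristane (labelled Irf8KO, n = 2), C57BL/6 wild-type (WT) mice given pristane (n = 2) and WT mice given phosphate-buffered saline (PBS, n = 1). Pristane is a mineral oil component that provokes long-lasting peritoneal inflammation. Irf8 is a transcription factor of monocyte and dendritic cell development. No source used here gives the kind of Irf8 mutation, the number of mice behind each library or the time after injection.

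Fc gamma receptors let leukocytes recognise cells, particles and immune complexes coated with IgG. An activating receptor of the mouse depends on the common gamma chain, whose cytoplasmic tail carries an activation motif (ITAM) that recruits the kinase Syk, while Fcgr2b carries an inhibitory motif (ITIM) that recruits the phosphatase SHIP (encoded by Inpp5d). Macrophages and monocytes usually hold both kinds, and their balance sets how strongly a cell answers to immune complexes. Fcgr1 (CD64) binds monomeric IgG with high affinity and is a textbook target of interferon signalling.

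The bases just before the annotated starts are shown for 4 members, the 3 lower and the one higher in the libraries labelled Irf8KO without overlap with WT pristane, to set what these starts hold beside the values that follow. They are the 250 bases upstream of the first RefSeq start, 5′ to 3′ on the strand of the gene, from RefSeq on GRCm38.p6, where all 5 members had an entry. Capitals mark matches, on either strand, to the gamma-activated site TTCNNNGAA (GAS), the interferon-stimulated element core GAAANNGAAA, the composite of an Ets factor and an interferon regulatory factor GGAANNGAAA, and the PU.1 motif GAGGAA. No 2 matches overlapped.
Fcgr1 (chr3:96293970-96294219, minus strand): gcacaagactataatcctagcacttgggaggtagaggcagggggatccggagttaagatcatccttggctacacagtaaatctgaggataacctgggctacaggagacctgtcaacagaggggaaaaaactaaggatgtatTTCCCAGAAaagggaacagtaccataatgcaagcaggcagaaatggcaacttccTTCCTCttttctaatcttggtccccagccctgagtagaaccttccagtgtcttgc
Fcgr4 (chr1:171018676-171018925, plus strand): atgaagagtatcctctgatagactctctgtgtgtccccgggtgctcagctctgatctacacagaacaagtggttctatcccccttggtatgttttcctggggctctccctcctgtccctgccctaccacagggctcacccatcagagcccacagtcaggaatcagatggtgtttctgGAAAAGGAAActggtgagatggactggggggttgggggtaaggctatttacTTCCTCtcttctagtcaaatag
Fcgr2b (chr1:170976072-170976321, minus strand): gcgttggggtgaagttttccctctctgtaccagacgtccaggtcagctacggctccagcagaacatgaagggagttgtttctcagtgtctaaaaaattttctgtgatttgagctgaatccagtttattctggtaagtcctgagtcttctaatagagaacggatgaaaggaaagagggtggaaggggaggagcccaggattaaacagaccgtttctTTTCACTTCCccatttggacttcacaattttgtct
Fcer1g (chr1:171234350-171234599, minus strand): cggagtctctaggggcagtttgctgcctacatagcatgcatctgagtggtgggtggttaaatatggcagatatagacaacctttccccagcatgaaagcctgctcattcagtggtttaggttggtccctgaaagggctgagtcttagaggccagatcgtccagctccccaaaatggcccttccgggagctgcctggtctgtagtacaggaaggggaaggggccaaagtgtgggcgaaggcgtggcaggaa
The Fcgr1 window held a GAS match at bases -109 to -101 from the start and a PU.1 match at -55 to -50. The Fcgr4 window held an interferon-stimulated element core at -73 to -64 and a PU.1 match at -22 to -17. The Fcgr2b window held 1 composite match, at -35 to -26. None of these letter strings was in the Fcer1g window, and both Fcgr3 windows, not shown, held a PU.1 match alone. Among 32536 windows of this length, GAS was found in 7.04%, the interferon-stimulated element core in 2.98%, the composite in 2.31% and the PU.1 motif in 23.4%.

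Values were FPKM, fragments scaled to transcript length and library size, so levels can be set side by side between genes. The libraries summed to between 451694 and 582696 FPKM, and the steps between the lowest values corresponded to roughly 2338000 to 5187000 fragments. Irf8 itself (121 and 59.4 FPKM in Irf8KO-labelled libraries, 63.3 and 48.7 FPKM in WT pristane, 32.4 FPKM under PBS) was not reduced where the label would have it, so the labels were not borne out by the level of this RNA and every direction for these libraries rests on their label. The libraries also differed in sex markers. The Y-linked Eif2s3y had 23.2 and 25.6 FPKM in Irf8KO-labelled libraries, 12.9 and 0 FPKM in WT pristane and 0 FPKM under PBS. Xist, which marks cells with an inactive X chromosome, had 0.0148 and 0.0145 FPKM, 0 and 8.81 FPKM, and 43.5 FPKM in the same order. Eif2s3y was thus present in both libraries labelled Irf8KO and in WT pristane replicate 1, and absent from WT pristane replicate 2 and PBS. Sex markers therefore went in part with the label and PBS groups, and the part of sex in the comparisons was not tested. The 11117 genes that reached 1 FPKM in any library were tested by limma on log2(FPKM + 1). Whether replicates are separate animals is not stated, and p-values can only reflect how far these libraries lay apart.

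The receptor genes split into different patterns (the plot of FPKM by library). Fcgr1 was high only in the 2 WT pristane libraries and near its PBS level in the libraries labelled Irf8KO. Fcgr4 and Fcgr2b were highest in WT pristane as well, over a much smaller range. Fcgr3 varied as much between the WT pristane libraries as anywhere else. Fcer1g was higher in all 4 pristane libraries than under PBS and highest in the libraries labelled Irf8KO. In bulk RNA, fewer cells of a type and less RNA per cell cannot be told apart.

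**Figure D1:**
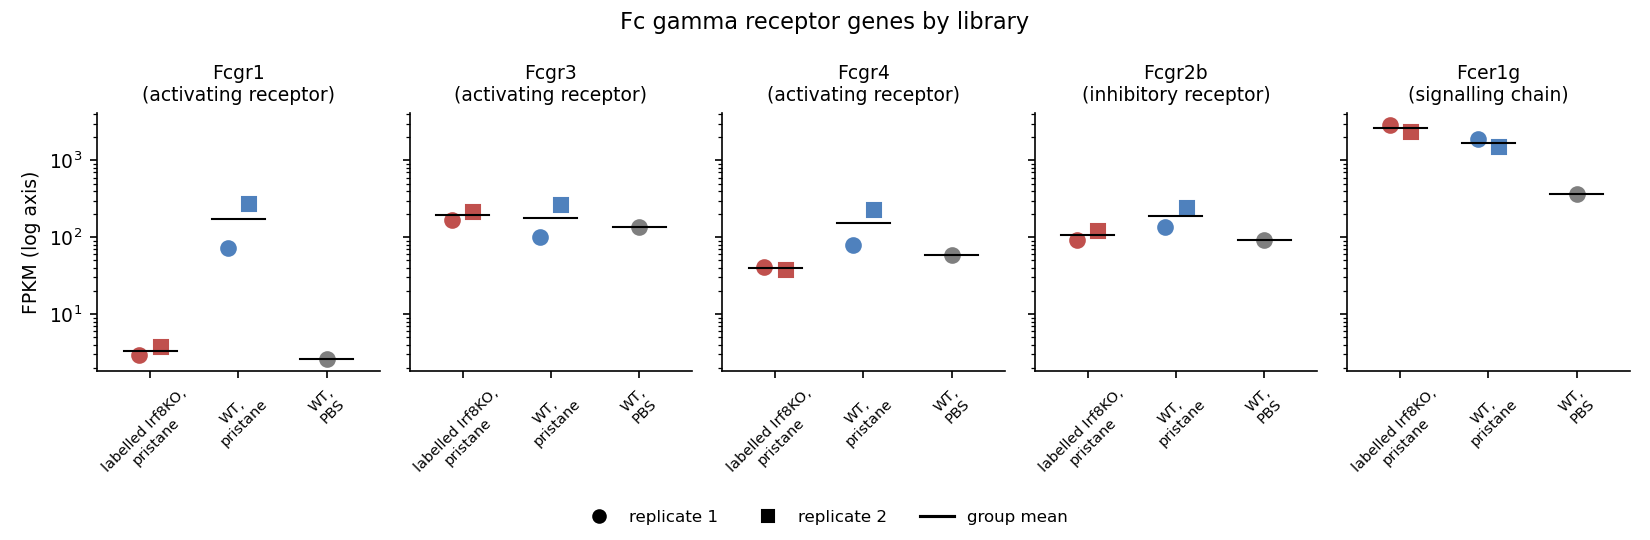
FPKM of the 5 Fc gamma receptor genes in each library (log axis), with replicates as circles and squares and a bar at the group mean (n = 2 for the pristane groups, n = 1 for PBS). Fcgr1 stands at 2.97 and 3.72 FPKM in Irf8KO-labelled libraries, at 73.1 and 271 FPKM in WT pristane and at 2.59 FPKM under PBS, while Fcer1g is at 1499 FPKM or more in every pristane library.

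Libraries labelled Irf8KO against WT pristane asked how the receptors stand in the 2 labelled genotypes after the same injected agent. No member passed an adjusted p of 0.05 by limma (0 of 5), and the same was true of nearly all genes, since 0.027% of the 11117 tested passed in either direction. At an unadjusted p under 0.05 the members that counted were Fcgr1 and Fcgr4, 2 of 5, against 20.6% of all genes. Fcgr1, Fcgr4 and Fcgr2b were lower without overlap between the groups (3 of 5, against 27.1% of all genes), and Fcer1g was higher without overlap (1 of 5, against 26.1%). The median log2 change was −0.78 over the members and 0.00 over all genes tested.

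Fcgr1 had 2.97 and 3.72 FPKM in Irf8KO-labelled libraries, against 73.1 and 271 FPKM in WT pristane. The lower WT pristane library stood far above both libraries labelled Irf8KO. The difference of mean log2(FPKM + 1) was −5.04 ± 0.69 (SE), with a 95% interval from −6.95 to −3.12 and an adjusted p of 0.0883 (limma), and it was the seventh lowest among the genes tested. The call turned on the genes and libraries in the fit. The limma adjusted p was 0.0209 when genes had to average 5 FPKM and 0.0102 when the 4 pristane libraries were fitted alone. In those fits 242 of 5894 and 431 of 10431 genes passed, against 3 of 11117 in the main fit. It did not pass with no filter (0.289) or at pseudocounts of 0.1 and 5 FPKM (0.0945 and 0.101). The log2 difference was −4.10 when WT pristane replicate 2 was left out and −5.98 when replicate 1 was. On a transcript of 2589 bp the values corresponded to roughly 40 and 33 fragments in the libraries labelled Irf8KO and 798 and 2021 fragments in WT pristane, so the low values did not rest on isolated fragments.

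Fcgr4, which encodes the mouse receptor of intermediate affinity for IgG2 subclasses, had 41.4 and 37.8 FPKM in Irf8KO-labelled libraries, against 80.1 and 225 FPKM in WT pristane. The groups did not overlap, but the WT pristane libraries lay further from each other than the lower of them from the libraries labelled Irf8KO. The log2 difference was −1.74 ± 0.54 (SE; 95% interval −3.25 to −0.23; adjusted p = 0.206, limma). It was −0.999 without WT pristane replicate 2 and −2.48 without WT pristane replicate 1. Fcgr3, the low-affinity activating receptor of macrophages, neutrophils and natural killer cells, had 168 and 217 FPKM in Irf8KO-labelled libraries, inside the 102 and 260 FPKM of WT pristane. Its log2 difference of 0.23 ± 0.51 (SE; 95% interval −1.20 to 1.66; adjusted p = 0.832, limma) turned to −0.44 without WT pristane replicate 1.

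Fcgr2b, the inhibitory receptor and the classical Fc gamma receptor of B cells, had 93.4 and 122 FPKM in Irf8KO-labelled libraries, against 138 and 244 FPKM in WT pristane. The groups did not overlap by a narrow margin, and the log2 difference of −0.78 ± 0.35 (SE; 95% interval −1.75 to 0.20; adjusted p = 0.316, limma) did not pass. It was −0.37 without WT pristane replicate 2 and −1.18 without WT pristane replicate 1. Fcer1g, the signalling chain, had 2921 and 2383 FPKM in Irf8KO-labelled libraries, against 1925 and 1499 FPKM in WT pristane. It was the member with the higher level in both libraries labelled Irf8KO, and its log2 difference of 0.64 ± 0.25 (SE; 95% interval −0.06 to 1.33; adjusted p = 0.266, limma) did not pass either.

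The question behind WT pristane against WT PBS was how the receptors answer to the oil in normal mice. Fcgr1 and Fcer1g rose past the threshold, 2 of 5 members, and none fell, against 5.18% of all genes tested that rose and 5.46% that fell. Fcgr1 had 73.1 and 271 FPKM in WT pristane, against 2.59 FPKM under PBS, a log2 difference of 5.31 ± 0.84 (SE; 95% interval 2.96 to 7.65; adjusted p = 0.0420, limma). Fcer1g had 1925 and 1499 FPKM in WT pristane, against 362 FPKM under PBS (log2 difference 2.23 ± 0.31 SE, 95% interval 1.38 to 3.07, adjusted p = 0.0348, limma). Both calls needed all 4 pristane libraries. For Fcgr1 the limma adjusted p was 0.154 and 0.158 with replicates 1 and 2 labelled Irf8KO left out in turn, and 0.0726 and 0.0768 with those of WT pristane left out in turn. For Fcer1g, leaving out the same libraries in the same order gave 0.133, 0.134, 0.0911 and 0.0901, and in each of these fits 0 genes of the whole table passed, with 2755 to 3755 at an unadjusted p under 0.05, so the calls against PBS given for other genes were lost there as well. With 1 PBS library, its spread had to be taken from the pristane pairs.

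The other 3 receptors did not pass in WT pristane against PBS. Fcgr4 had 80.1 and 225 FPKM in WT pristane, against 58.8 FPKM under PBS (log2 difference 1.18 ± 0.67 SE, 95% interval −0.67 to 3.03, adjusted p = 0.288, limma). Fcgr2b had 138 and 244 FPKM in WT pristane, against 91.1 FPKM under PBS (log2 difference 1.00 ± 0.43 SE, 95% interval −0.19 to 2.19, adjusted p = 0.195, limma). For both genes the 2 WT pristane libraries stood above PBS, with replicate 1 close to it and replicate 2 well above. Fcgr3 had 102 and 260 FPKM in WT pristane, on either side of 137 FPKM under PBS (log2 difference 0.24 ± 0.63 SE, adjusted p = 0.813, limma), and the sign turned to −0.43 without WT pristane replicate 2.

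Libraries labelled Irf8KO against WT PBS share their pristane and PBS libraries with the other comparisons and are given for completeness of the levels. Fcer1g alone rose, 1 of 5 members, against 3.81% of all genes that rose and 4.72% that fell. Fcer1g had 2921 and 2383 FPKM in Irf8KO-labelled libraries, against 362 FPKM under PBS (log2 difference 2.86 ± 0.31 SE, 95% interval 2.01 to 3.71, adjusted p = 0.0319, limma). The limma adjusted p was 0.172 with either library labelled Irf8KO left out, and 0.0659 and 0.0649 with WT pristane replicates 1 and 2 left out in turn. Fcgr1 had 2.97 and 3.72 FPKM in Irf8KO-labelled libraries, against 2.59 FPKM under PBS, a log2 difference of 0.27 ± 0.84 (SE; 95% interval −2.07 to 2.61; adjusted p = 0.848, limma). That interval is wide enough to hold a 4-fold change either way. Fcgr4 was the one member below its PBS level in both libraries labelled Irf8KO (41.4 and 37.8 FPKM against 58.8 FPKM), with a log2 difference of −0.56 ± 0.67 (SE; adjusted p = 0.588, limma).

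**Figure D2:**
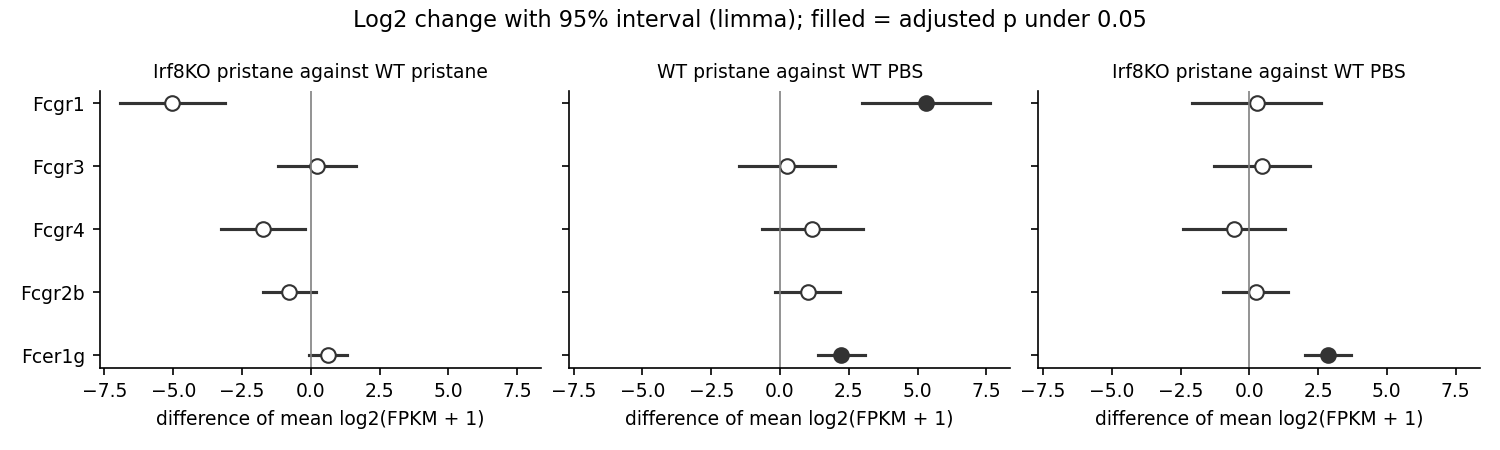
Difference of mean log2(FPKM + 1) for each member (points) with its 95% interval (lines) from limma over all 5 libraries, in the 3 comparisons. Filled points passed an adjusted p of 0.05: Fcgr1 (5.31) and Fcer1g (2.23) in WT pristane against WT PBS, and Fcer1g (2.86) in libraries labelled Irf8KO against WT PBS.

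The make-up of the receptor pool was described per library, as each gene's percentage of the summed FPKM of the 4 receptors, with no test. Fcgr1 made up 0.969% and 0.978% of the pool in the libraries labelled Irf8KO, 18.6% and 27.1% in WT pristane and 0.894% under PBS. Fcgr3 made up 55.0% and 56.9% in the libraries labelled Irf8KO, 25.8% and 26.0% in WT pristane and 47.4% under PBS. The share of Fcgr3 was thus nearly the same in both WT pristane libraries, although its FPKM differed 2.56-fold between them. Fcgr4 made up 13.5% and 9.94% in the libraries labelled Irf8KO, 20.4% and 22.5% in WT pristane and 20.3% under PBS. The inhibitory Fcgr2b made up 30.5% and 32.2% in the libraries labelled Irf8KO, 35.2% and 24.4% in WT pristane and 31.4% under PBS. Its highest and lowest parts were thus both in WT pristane.

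**Figure D3:**
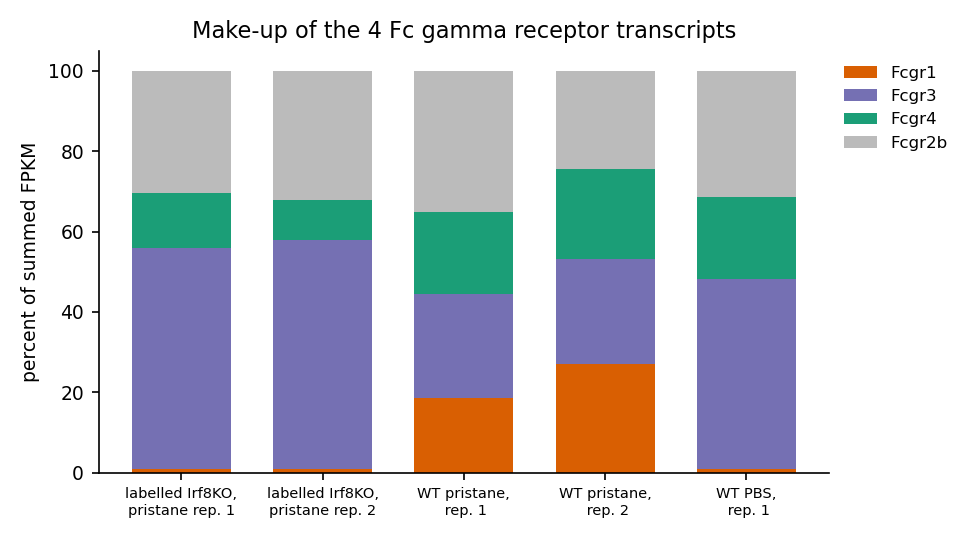
Percentage of the summed FPKM of the 4 Fc gamma receptors taken by each, per library. The Fcgr1 part is under 1% in the libraries labelled Irf8KO and under PBS and 18.6% and 27.1% in WT pristane, while Fcgr2b lies between 24.4% and 35.2% in all 5 libraries.

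The sum of activating receptors over Fcgr2b, a rough index of the balance between activation and inhibition, was 2.28 and 2.11 in the libraries labelled Irf8KO, 1.84 and 3.10 in WT pristane and 2.18 under PBS. These ranges overlapped, so the total balance of RNA did not separate the groups. Single ratios did not overlap between the pristane groups. Fcgr1 over Fcgr2b was 0.0318 and 0.0304 in the libraries labelled Irf8KO, 0.529 and 1.11 in WT pristane and 0.0285 under PBS. Fcgr3 over Fcgr2b ran the other way, at 1.80 and 1.77 in the libraries labelled Irf8KO, 0.735 and 1.06 in WT pristane and 1.51 under PBS. Fcer1g over the summed activating receptors, which need it for signalling, was 13.7 and 9.24 in the libraries labelled Irf8KO, 7.55 and 1.98 in WT pristane and 1.82 under PBS. WT pristane replicate 2 therefore held the chain and the receptors in about the proportion of the PBS library, and replicate 1 did not.

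The 2 WT pristane libraries differed from each other in all 4 receptors in the same direction. Replicate 2 was higher than replicate 1 by 3.71-fold for Fcgr1, 2.81-fold for Fcgr4, 2.56-fold for Fcgr3 and 1.77-fold for Fcgr2b, while Fcer1g in replicate 2 was at 0.779 of its value in replicate 1. Of the 10 inflammatory monocyte markers, 8 were higher in replicate 2 as well: Ly6c2 stood at 145 and 296 FPKM, Ccr2 at 27.1 and 85.5 FPKM and F13a1 at 33.4 and 218 FPKM in replicates 1 and 2. Fn1 (1562 and 926 FPKM) and Hp (1278 and 687 FPKM) were lower in replicate 2, and with them the list summed to 3935 and 3565 FPKM. Sex markers differed too, with Eif2s3y at 12.9 and 0 FPKM and Xist at 0 and 8.81 FPKM in replicates 1 and 2. The part of sex or of monocytes in the receptor differences was not tested. The libraries labelled Irf8KO were closer to each other, with ratios of replicate 1 to replicate 2 between 0.764 for Fcgr2b and 1.23 for Fcer1g.

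Markers of the cell types that carry these receptors differed between the groups, and their part in the receptor differences was not tested. Of 10 inflammatory monocyte markers, 8 had a lower mean log2 value with the Irf8KO label than in WT pristane, among them Ly6c2 (42.9 and 19.8 FPKM against 145 and 296 FPKM) and Ccr2 (5.03 and 3.13 FPKM against 27.1 and 85.5 FPKM). Fn1 and Hp were the 2 that were higher, and with them the list summed to 4834 to 5546 FPKM in Irf8KO-labelled libraries and 3565 to 3935 FPKM in WT pristane. The 10 neutrophil markers summed to 23781 to 46227 FPKM in Irf8KO-labelled libraries, 15006 to 16841 FPKM in WT pristane and 163 FPKM under PBS. Most of each sum was S100a8 and S100a9. Member by member, 8 of 10 had a higher mean log2 value with the Irf8KO label than in WT pristane. Il1r2 (170 and 107 FPKM against 212 and 321 FPKM) and Stfa2l1 (188 and 98.3 FPKM against 191 and 207 FPKM) were lower. Of the 10, 3 had an unadjusted p under 0.05 by limma (20.6% of all genes). The 10 markers of large peritoneal macrophages summed to 1341 to 2126 FPKM in Irf8KO-labelled libraries, 119 to 151 FPKM in WT pristane and 2033 FPKM under PBS. With the Irf8KO label 9 had a higher mean log2 value than in WT pristane and 1, Timd4, a lower one. Timd4 was at 0.0957 and 0.552 FPKM in Irf8KO-labelled libraries, 0.676 and 0.838 FPKM in WT pristane and 26.9 FPKM under PBS. Against PBS 6 of the 10 were higher with the Irf8KO label and 4 lower. Natural killer cell markers, 8 in all, summed to 35.9 to 85.7 FPKM in Irf8KO-labelled libraries, 162 to 211 FPKM in WT pristane and 64.8 FPKM under PBS. The 10 B cell markers, which matter for Fcgr2b, summed to 51.4 to 111 FPKM in Irf8KO-labelled libraries, 11.2 to 29.7 FPKM in WT pristane and 1757 FPKM under PBS. None of these markers was listed at 0 in a library labelled Irf8KO, and in WT pristane the B cell markers Cr2 and Faim3 were, both in replicate 2. Of 10 markers of small macrophages and dendritic cells, which summed to 121 to 227 FPKM, 459 to 1156 FPKM and 3068 FPKM in the same order, Cd209a and Clec9a were listed at 0 in Irf8KO pristane replicate 1 and Xcr1 in replicate 2. Most of that sum was H2-Aa, an antigen-presentation gene that B cells express too, at 169 and 95.4 FPKM in Irf8KO-labelled libraries, 1069 and 313 FPKM in WT pristane and 2765 FPKM under PBS. Member by member, 10 of 10 had a lower mean log2 value with the Irf8KO label than in WT pristane. In WT pristane 6 of 10 had a higher one than under PBS (median log2 difference 0.57). None passed the threshold by limma in either comparison. With the Irf8KO label against WT pristane 5 had an unadjusted p under 0.05 by limma (20.6% of all genes). In WT pristane against PBS 2 did, beside 3753 of all 11117 genes. Clec9a, Xcr1, Flt3 and Siglech reached 1 FPKM only in WT pristane, so these counts rest in part on genes tested only through the group where they were high. Mast cell markers, 8 in all, summed to 112 to 114 FPKM, 52.5 to 190 FPKM and 329 FPKM, and the defining proteases Mcpt4 and Tpsab1 were listed at 0 in all 4 pristane libraries. The pristane sums were nearly all Hdc, at 108 and 110 FPKM in Irf8KO-labelled libraries, 186 and 50.2 FPKM in WT pristane and 10.9 FPKM under PBS. Against PBS, 6 of the 8 markers fell in WT pristane (limma; median log2 difference −3.28), beside 5.46% of all genes. Cpa3, Mcpt4, Tpsb2, Gata2 and Tpsab1 reached 1 FPKM only under PBS, so they were tested only through the group where they were high. The count rests in part on such genes. Ptprc, the CD45 antigen of all leukocytes, was at 65.3 and 44.1 FPKM in Irf8KO-labelled libraries, 98.9 and 91.1 FPKM in WT pristane and 70.3 FPKM under PBS.

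Among other Fc receptors most calls against PBS were falls. Of 13 listed genes 11 were tested, and in WT pristane against PBS 1 rose and 6 fell past the threshold, beside 5.18% and 5.46% of all genes, with a median log2 change of −2.09 beside −0.07 over all genes. Fcgrt, the neonatal Fc receptor that recycles IgG inside cells, had 13.2 and 13.6 FPKM in WT pristane, against 60.3 FPKM under PBS (log2 difference −2.09 ± 0.19 SE, adjusted p = 0.0257, limma). The B-lineage genes Fcrla (2.82 and 3.03 FPKM against 98.1 FPKM) and Fcrl5 (0.0984 and 0 FPKM against 24.1 FPKM) fell as well, with log2 differences of −4.66 and −4.58. Faim3, the IgM receptor of lymphocytes (also called Fcmr), had 3.95 and 0 FPKM against 194 FPKM and did not pass (adjusted p = 0.0689, limma). Of the genes that fell, Pigr and Fcer1a were listed at 0 in both WT pristane libraries. The gene that rose was Fcrlb, at 3.50 and 5.21 FPKM in WT pristane and listed at 0 under PBS, for which no fold is given. Pigr, Fcer1a and Fcer2a reached 1 FPKM only under PBS, and Fcrlb only in WT pristane. These genes were thus tested only through the group where they were high. The counts of calls and the list median rest in part on them and are no support for a shift of the list. In libraries labelled Irf8KO against WT pristane 0 of 11 passed by limma, and 4 had an unadjusted p under 0.05 (20.6% of all genes). Of the 11, 8 had a log2 difference above 0 in that comparison and 3 below. Fcgrt stood at 19.3 and 18.6 FPKM in Irf8KO-labelled libraries, against 13.2 and 13.6 FPKM (log2 difference 0.47 ± 0.15 SE, adjusted p = 0.210, limma). Fcrlb ran the other way, at 0.186 and 0.266 FPKM against 3.50 and 5.21 FPKM (log2 difference −2.11 ± 0.23 SE, adjusted p = 0.0661, limma).

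The common gamma chain also serves other receptors. Of 10 listed partners 6 were tested, and 3 rose and none fell in WT pristane against PBS, beside 5.18% and 5.46% of all genes (median log2 change 2.43). Clec4e (Mincle), a receptor for microbial and damaged-cell glycolipids, had 741 and 356 FPKM in WT pristane, against 34.8 FPKM under PBS (log2 difference 3.85 ± 0.51 SE, adjusted p = 0.0338, limma). Pira2, an activating paired receptor, and Ncr1, the activating receptor of natural killer cells, were the other two, with log2 differences of 2.57 and 2.28. Clec4n (Dectin-2), a receptor for fungal mannans, had 267 and 50.7 FPKM against 4.71 FPKM and did not pass (adjusted p = 0.0807, limma). Between libraries labelled Irf8KO and WT pristane 0 of 6 passed by limma, with 2 at an unadjusted p under 0.05 (20.6% of all genes), and Clec4e, at 568 and 464 FPKM in Irf8KO-labelled libraries, had a log2 difference of 0.00 ± 0.42 (SE).

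Tyrobp (DAP12), the other ITAM adaptor of myeloid cells, was higher in level than Fcer1g in every library, with the libraries in the same order. It stood at 4680 and 3841 FPKM in Irf8KO-labelled libraries, 2561 and 2153 FPKM in WT pristane and 1145 FPKM under PBS. The log2 difference was 0.85 ± 0.25 (SE; adjusted p = 0.191, limma) in libraries labelled Irf8KO against WT pristane and 1.04 ± 0.30 (SE; adjusted p = 0.104, limma) in WT pristane against PBS. Tyrobp over Fcer1g was 1.60 and 1.61 in the libraries labelled Irf8KO, 1.33 and 1.44 in WT pristane and 3.16 under PBS. Of the 5 listed signalling chains and adaptors, Tyrobp among them, 2 fell in WT pristane against PBS (5.46% of all genes fell). They were the B cell receptor chains Cd79a and Cd79b, with log2 differences of −6.74 and −6.79. In libraries labelled Irf8KO against WT pristane 0 of 5 passed by limma, with 4 at an unadjusted p under 0.05 (20.6% of all genes).

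Downstream of the receptors, 1 of 23 activating genes rose and none fell in WT pristane against PBS (median log2 change 0.28), a share near the 5.18% of all genes that rose: the Src-family kinase Fgr, with 192 and 122 FPKM in WT pristane, against 17.7 FPKM under PBS (log2 difference 3.04 ± 0.34 SE, adjusted p = 0.0296, limma). Syk, the kinase that binds the phosphorylated ITAM, had 25.7 and 18.4 FPKM in WT pristane, against 59.2 FPKM under PBS, and did not pass (log2 difference −1.40 ± 0.27 SE, adjusted p = 0.0529, limma). Lyn, a kinase that serves both activating and inhibitory receptors, was nearly level, at 143 and 150 FPKM in Irf8KO-labelled libraries, 143 and 173 FPKM in WT pristane and 129 FPKM under PBS. Of 14 inhibitory genes 4 rose and none fell in WT pristane against PBS, beside 5.18% and 5.46% of all genes (median log2 change 0.44). They were the ITIM receptors Lilrb4 and Pirb, Sirpa, the receptor for the "do not eat me" protein CD47, and the adaptor Dok2, with log2 differences of 3.11, 1.31, 2.28 and 2.45. In libraries labelled Irf8KO against WT pristane 0 of 23 activating and 0 of 14 inhibitory genes passed by limma, with 4 and 3 at an unadjusted p under 0.05 (20.6% of all genes) and medians of −0.09 and −0.27. Rac2, the GTPase of phagocyte actin and oxidase function, had 354 and 287 FPKM in Irf8KO-labelled libraries, against 192 and 132 FPKM in WT pristane (log2 difference 1.00 ± 0.26 SE, adjusted p = 0.172, limma).

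Genes known to control Fc gamma receptor levels were listed as 13, and 3 rose and none fell in WT pristane against PBS, beside 5.18% and 5.46% of all genes (median log2 change 0.92). Those were C5ar1, the receptor for the complement fragment C5a, Spi1, which encodes PU.1, and Ifngr2, a chain of the interferon gamma receptor, with log2 differences of 2.76, 2.07 and 1.98. In libraries labelled Irf8KO against WT pristane 0 of 13 passed by limma and 3 had an unadjusted p under 0.05, near the 20.6% of all genes, while 12 had a log2 difference below 0 (median −0.45). Spi1 had 242 and 201 FPKM in Irf8KO-labelled libraries, against 339 and 216 FPKM in WT pristane (log2 difference −0.30 ± 0.29 SE, adjusted p = 0.601, limma).

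**Figure D4:**
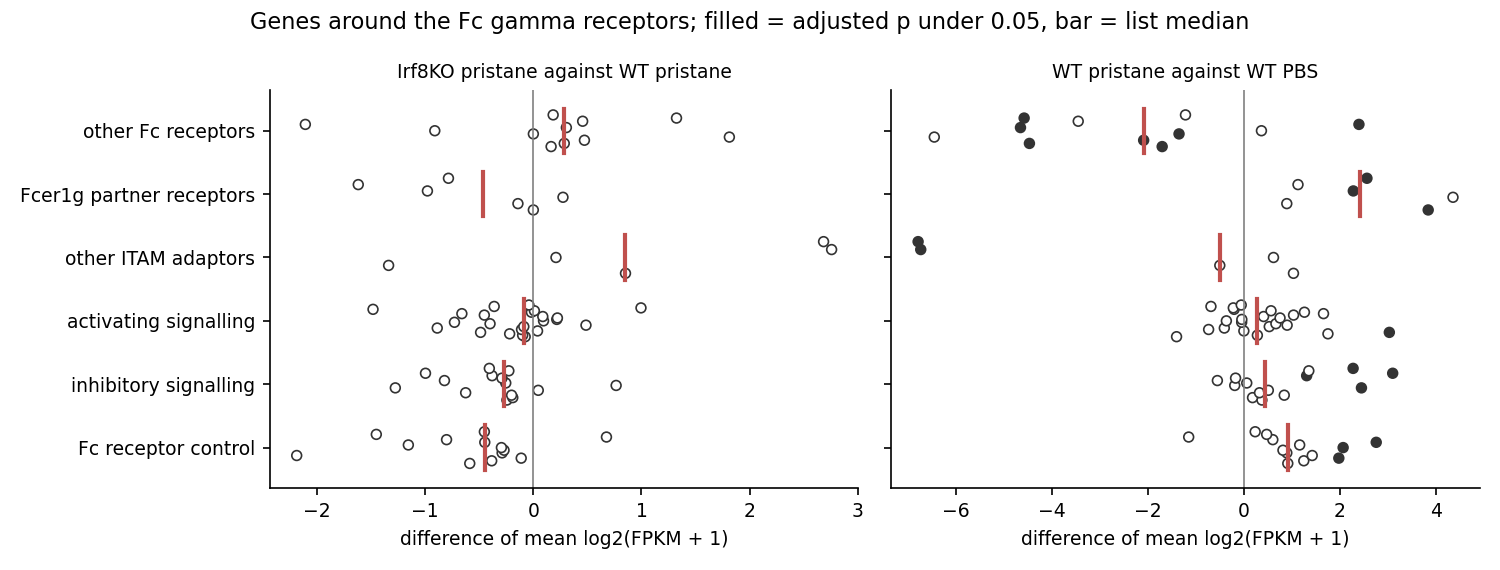
Difference of mean log2(FPKM + 1) for each tested gene of 6 lists around the Fc gamma receptors, in libraries labelled Irf8KO against WT pristane (left) and WT pristane against WT PBS (right), with filled points for an adjusted p under 0.05 (limma) and a bar at the list median. No point is filled on the left, and on the right the median is −2.09 for other Fc receptors and 2.43 for partners of Fcer1g.

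Likeness to each member was measured over the 5 libraries as the root mean square difference of log2(FPKM + 1) values centred on each gene's mean, among 4771 genes with a mean of at least 3. The genes nearest to Fcgr1 were Usp18, which ends interferon receptor signalling (0.45), Irf7, which amplifies interferon production (0.56), and Rsad2, which encodes the antiviral enzyme viperin (0.64). Usp18 had 0.859 and 1.41 FPKM in Irf8KO-labelled libraries, against 51.6 and 84.2 FPKM in WT pristane and 1.63 FPKM under PBS. The other members were far from Fcgr1 on this scale, from 1.79 for Fcgr4 to 2.64 for Fcer1g. Nearest to Fcgr4 were Lpxn, Ehd4 and Il18bp (0.12, 0.20 and 0.27), and Il18bp encodes the secreted inhibitor of interleukin-18. Nearest to Fcgr2b were Daglb, Capn2 and the lipopolysaccharide receptor Tlr4 (0.10, 0.14 and 0.15). Nearest to Fcgr3 were Bet1, Pop4 and Mkl2 (0.18, 0.21 and 0.21). Nearest to Fcer1g were Sqrdl, a mitochondrial sulfide oxidase, and the glycolytic enzymes Gapdh and Aldoa (0.04, 0.12 and 0.12).

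Fcgr2b, Fcgr4, Fcgr3 and Fcer1g lie on chromosome 1 and Fcgr1 on chromosome 3. The first 3 neighbour each other, in that order, when only genes of the deposited table are counted. Fcrla, next to Fcgr2b on the outer side, had 5.77 and 2.47 FPKM in Irf8KO-labelled libraries, 2.82 and 3.03 FPKM in WT pristane and 98.1 FPKM under PBS, an order unlike that of Fcgr2b. Fcgr2b and Fcgr3 have similar extracellular parts. Of the 50-base stretches of coding transcripts in GENCODE M21, 10.2% of those of Fcgr3 and 10.7% of those of Fcgr2b also occurred in another gene, and 166 stretches were shared by these 2 genes. No source used here says how the authors assigned fragments that match both, so their values are uncertain to that extent. Fcgr1, Fcgr4 and Fcer1g shared 0 such stretches with any other gene.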

How the data were processed

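RNA from mouse peritoneal lavage cells was sequenced by Smart-seq2 in 5 libraries. Per the submitters' processing notes BWA, TopHat2 2.0.10, Cufflinks 2.2.1 and Cuffnorm were used, with no step named for each. The deposited values are FPKM, although the authors named the table a count table: they are not whole numbers. No source used here gives the genome build, the annotation or any scaling between libraries. The FPKM of 1 fragment was taken from the mode of value times length, over single-transcript genes of 1000 bp or longer with values under 0.3 FPKM. Of the products that rounded to 1 or 2 fragments, 58.3% to 81.0% lay within 0.15 of that number, so fragment numbers are rough.

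The whole table was fitted on log2(FPKM + 1) by limma-trend (limma 3.58.1, R 4.3.3), which understates changes of low genes. The fit had 3 group means, 2 residual and 1.99 prior degrees of freedom, 2-sided p-values and Benjamini-Hochberg adjustment over 11117 genes. The fit was checked on simulated data. Genes named from a list had its 4 smallest p or 2 highest levels, and the 3 genes nearest to each member were named. Fcrlb, Fcer1a, Fcer2a, Irf8, Ptprc, the sex markers and the single cell markers fell outside this rule, and most were chosen after their values were seen. Some genes that the rule names are not reported here. Members and lists were chosen with earlier results of these data known. IgG heavy chain genes were not analysed here, and 0 of 3 listed pentraxin genes reached the filter. The other settings tried are named in the closing section. Figures were drawn with matplotlib 3.10.9.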

Additional observations from a re-analysis of the deposited data

How the results depend on the processing

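The count of members past the threshold in libraries labelled Irf8KO against WT pristane was 0, and it was 1 (Fcgr1) with a mean of at least 5 FPKM, 1 (Fcgr1) with the 4 pristane libraries alone and 2 (Fcgr1 and Fcgr4) when those also had the replicate number as a block. The block's adjusted p was 5.4e-04 for Fcgr1 and 0.0347 for Fcgr4 (limma). The replicates share only a number: over 10431 genes the differences between replicates 1 and 2 in the 2 pristane groups correlated at 0.04. With no filter the count was 0 in WT pristane against WT PBS and 0 in libraries labelled Irf8KO against WT PBS, and leaving out any pristane library gave 0 to 0 in all 3 comparisons. With 1 library left out, Fcgr3 ran from −0.44 (without WT pristane replicate 1) to 0.90 in libraries labelled Irf8KO against WT pristane and from −0.43 (without WT pristane replicate 2) to 0.91 in WT pristane against WT PBS. No other member changed sign under any of the 11 alternatives of each comparison or the 2 further ones for the pristane groups. In libraries labelled Irf8KO against WT pristane Fcgr1 ranged from −5.98 to −4.10 and Fcgr4 from −2.48 to −0.999.

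Over all genes, 3 passed in libraries labelled Irf8KO against WT pristane, with 0 at a pseudocount of 0.1, 5 at a pseudocount of 5, 40 without the mean-variance trend, 242 with a mean of at least 5 FPKM, 431 with the 4 pristane libraries alone, 799 with the block and 0 without any 1 pristane library, where 1005 to 2529 had an unadjusted p under 0.05 (2234 at the pseudocount of 0.1). In libraries labelled Irf8KO against WT PBS 949 passed, 623 without the trend and 0 without any 1 pristane library (2242 to 4013 at an unadjusted p under 0.05). The log2 ratio of Fcgr1 to Fcgr2b in the libraries labelled Irf8KO was −5.01, and −4.64 with 1 FPKM added to both genes. The causes were not tested. The pristane groups held 2 libraries each and PBS 1, and this number limits the precision.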
